A study of Rattus norvegicus with 8 samples.

Results

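Methylation was examined in the promoter regions of 4 genes that carry signals into or out of cells: the receptors Adra1d, Adcyap1r1 and Npr2, and the secreted ligand Alkal1. Their regions are 4 of the 246 regions in the study's list of hypermethylated promoters, and each was taken with every CpG up to 1 kb on either side. The 4 windows held 271 CpGs, of which 224 had reads in all 8 samples, out of 2052737 such CpGs in the series. The list was made from the difference between these same UCs and controls, so the differences below describe the chosen regions and carry no test. Per the paper, regions lay in CpG islands near gene starts and differed by more than 10%. The promoters of the 246 genes were more methylated in each of the 5 UCs than in the 3 normal bladders. Separation of the groups and a lower end near 10 points were thus set by the choice.

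The samples were 5 UCs (urothelial carcinomas) from F344/DuCrj rats given 200 ppm dimethylarsinic acid, DMA(V), in drinking water, and 3 normal bladders from rats of the same strain given 0 ppm. The rats were male, were 10 weeks old at the start, and the planned treatment was 104 weeks. Per the paper, animals were killed when moribund or at week 104, so some may have been treated for less time. The UCs are numbered here as in the sample labels, which name them BT1 to BT5. Per the paper, these tumours were not examined by histology and were taken as UCs from their macroscopic size. The labels call the controls bladder urothelium, whereas the methods speak of bladder tissue, and the sources do not say whether the 5 UCs came from 5 animals. Only the DNA libraries were used, and gene expression in these UCs was not analysed here, so the tissue was not checked against marker genes. In these bulk samples a change in cell composition cannot be told apart from a change within cells. DNA was analysed by reduced representation bisulfite sequencing (RRBS): it is cut at CCGG (MspI) and TCGA (TaqI) sites, so that CpG-rich DNA is favoured, and treated with bisulfite, after which an unmethylated C is read as T. The methylation level of a CpG or region is the share of C among its C and T calls, in percent, and differences between levels are given in percentage points.

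Adra1d encodes the alpha-1D adrenergic receptor, a Gq-coupled receptor of noradrenaline and adrenaline that is found in the bladder. Adcyap1r1 encodes PAC1, the receptor of the neuropeptide PACAP, which raises cyclic AMP and acts in the nerve supply and urothelium of the bladder. Npr2 encodes natriuretic peptide receptor B, a membrane guanylyl cyclase that makes cyclic GMP when it binds C-type natriuretic peptide and is best known for its part in bone growth. Alkal1 encodes a secreted protein that activates the receptor tyrosine kinases LTK and ALK. CpG-rich promoters are as a rule unmethylated in normal tissue, and their methylation in cancers often accompanies silencing of the gene.

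The promoters of Adra1d and Adcyap1r1 are shown, as the promoter set used held no sequence for Npr2 and Alkal1. Both hold CpGs at which all UCs were higher beside CpGs that stayed low. Both are RefSeq sequences of assembly GRCr8, from 250 bases before the start of the gene to 30 bases after it, written in the direction of transcription (Adra1d, chr3:139262302-139262581, minus strand; Adcyap1r1, chr4:85923921-85924200, plus strand). The measured CpGs, whose rn6 positions are used in the rest of the text, were placed on them by the spacing of CpGs alone: 20 of 20 measured CpGs fell on a CpG for Adra1d and 28 of 28 for Adcyap1r1, against 8 of 36 and 11 of 42 at the next best placing. Capitals mark the CpGs at which every UC lay above every control and the group means were over 10 points apart.
Adra1d: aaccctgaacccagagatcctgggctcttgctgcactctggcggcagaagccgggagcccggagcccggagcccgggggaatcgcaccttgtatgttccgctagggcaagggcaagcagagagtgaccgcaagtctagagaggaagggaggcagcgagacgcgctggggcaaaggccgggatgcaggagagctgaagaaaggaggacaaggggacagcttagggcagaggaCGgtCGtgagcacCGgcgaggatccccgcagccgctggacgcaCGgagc
Adcyap1r1: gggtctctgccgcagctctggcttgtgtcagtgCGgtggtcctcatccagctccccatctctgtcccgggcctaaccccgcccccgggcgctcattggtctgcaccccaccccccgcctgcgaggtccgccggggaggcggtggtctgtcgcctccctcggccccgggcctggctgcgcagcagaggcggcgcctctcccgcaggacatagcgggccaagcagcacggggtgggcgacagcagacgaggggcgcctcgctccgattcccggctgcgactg
Over 300 bases, from 250 before to 50 after the start, the Adra1d promoter held 22 CpGs and 7 CCGG sites. The Adcyap1r1 promoter held 29 CpGs and 5 CCGG sites. The median of 33469 rat promoters of this length was 7 CpGs, 79.0% had fewer CpGs than Adra1d, 88.5% had fewer than Adcyap1r1, and 51.4% held CCGG. The Adra1d region began and ended at CCGG, the site that MspI cuts on both strands. Promoter sequences of Npr2 and Alkal1 were not used here.

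Each sample had 2526077 to 2821347 CpGs and 51434938 to 73836223 calls, with a median of 14 to 18 reads per CpG. Over the 574206 CpGs that had 20 or more reads throughout, UC 1 and UC 2 differed by a root mean square of 5.43 points and UC 4 and UC 5 by 5.59. The other 8 pairs of UCs differed by 13.4 to 14.7 points, and pairs of controls by 5.74 to 6.17. UC 1 and UC 2, and likewise UC 4 and UC 5, were thus as alike as pairs of controls. UC 3 was 11.5 points from the controls and the other UCs 17.2 to 18.4. With each alike pair averaged as 1 sample, the differences of the 4 regions became 20 points for Adra1d, 9.48 for Adcyap1r1, 10.9 for Npr2 and 11.7 for Alkal1. Without UC 3 they were 25.3, 10.3, 15.1 and 15.9 points.

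Methylation of all 4 regions was low in the normal bladders and higher in most UCs. The group means were 1.80% and 23.9% for Adra1d, 2.28% and 12.1% for Adcyap1r1, 1.16% and 13.7% for Npr2, and 5.08% and 18.4% for Alkal1. The groups did not overlap in the 3 receptor regions, with each UC above all controls, and UC 3 lay below control 1 in the Alkal1 region. Of the 202 regions of the list with at least 3 CpGs in every sample, 93.1% were separated in this way. Of the 224 CpGs of the 4 windows, 14 (6.25%) had each UC above all controls with means over 10 points apart, where 6.89% of all CpGs of the series did. Inside the regions 5 of 16 CpGs met this criterion, and 9 of 208 in the flanks. In the opposite direction it was met by 0 of the 224 CpGs and by 5.71% of all CpGs. With at least 10 reads in each sample it was met by 10 of 179 CpGs of the windows and by 7.52% of all such CpGs. Without a minimum difference the share rose to 13.4% (30 of 224) where all CpGs gave 8.05%, and with a difference over 20 points it fell to 3.57% where all CpGs gave 4.75%. Since the regions were chosen on this contrast, nothing is read from these shares.

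**Figure D1:**
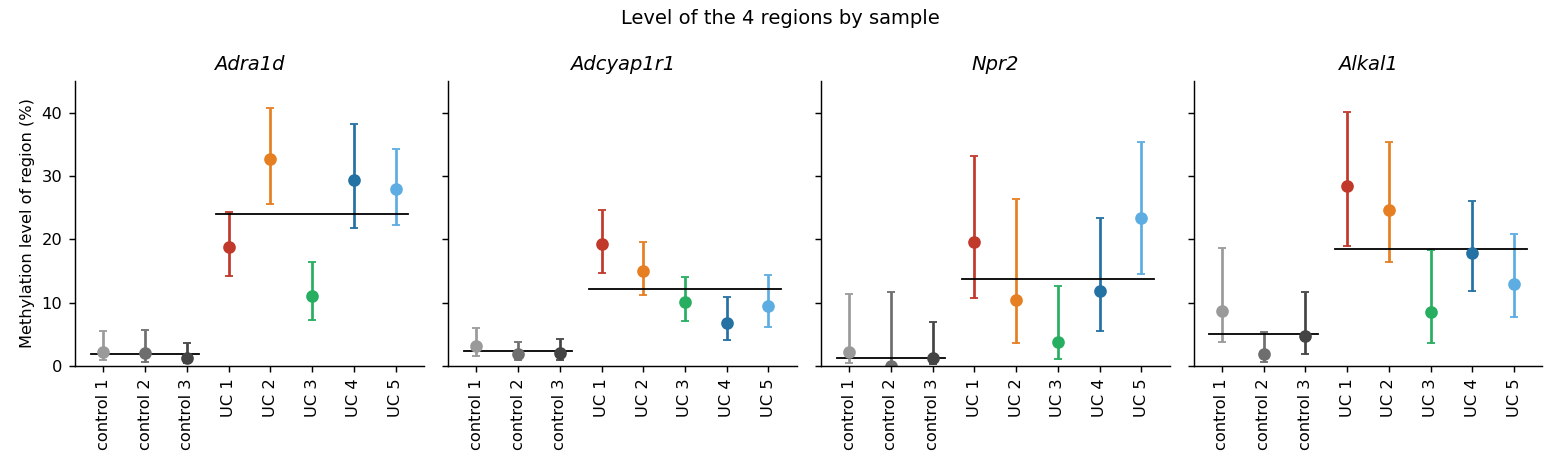
Methylation level (percent of C among C and T calls) of the 4 regions in each of 3 controls (grey) and 5 UCs (coloured). Points are samples, bars are 95% Wilson intervals of the calls, and horizontal lines are group means. The controls lie between 0 and 8.62% and the UCs between 3.70% and 32.6%.

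The Adra1d region (rn6, chr3:124145571-124145638, 3 CpGs) lay just upstream of the start of the gene, from base -6. Its levels were 2.22%, 1.96% and 1.23% in controls 1 to 3, on 153 to 244 calls. UC 1 to UC 5 had 18.8%, 32.6%, 11%, 29.3% and 27.9%, on 116 to 229 calls. UC 3 was the lowest UC, and its 95% Wilson interval of 7.27% to 16.5% stayed above the level of each control. The means were 1.80% ± 0.51 (SD, n = 3) and 23.9% ± 8.84 (n = 5), a difference of 22.1 points.

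The 3 CpGs of the Adra1d region did not gain equally in each UC. At base -6 (124145571) the UCs had 33.3%, 51.4%, 16.3%, 25.7% and 27.5%, against 0 to 6.67% in the controls. At base -15 (124145580) they had 27%, 35.2%, 15.2%, 32.5% and 30.8%, against 0 to 2.90%. At base -19 (124145584), 4 bp further, UC 1 had 2.25% and UC 3 had 3.03%, close to the controls at 1.02% to 1.64%, while UC 2 had 18.2%, UC 4 29.3% and UC 5 25.3%. The next CpG upstream, at base -74, was low in all samples, with a difference of 0.67 points. It lay in the CCGG site at the end of the region, and any effect of the MspI cut on its level was not tested.

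The flanks of Adra1d were at 1.23% ± 0.25 in controls and 7.59% ± 1.70 in UCs, and the groups did not overlap (9.43%, 9.16%, 6.79%, 5.38% and 7.19% in UC 1 to UC 5). Downstream of the start the order of the UCs turned. At base +25 (124145541), 30 bp from the region, the level was 79.7% in UC 1 and 79.6% in UC 2, with 95% Wilson intervals of 67.7% to 88.0% and 66.4% to 88.5%. In UC 3, UC 4 and UC 5 it was 5.0%, 5.08% and 6.38%, and in the controls 2.13%, 2.63% and 4.6%, on 38 to 87 reads per sample. Thus 2 UCs were mostly methylated at this CpG and the other 3 were close to the controls. The adjacent CpG 4 bp away (124145545) had 15% in UC 1 and 2.04% in UC 2, on nearly the same number of reads. The difference of group means dropped by 26.5 points between these neighbours, and 1.95% of 407166 pairs of neighbouring CpGs within 60 bp had a step at least as large. This step was picked as the largest of 31 in the window, so the share, which is for single pairs, does not show how rare it is. At base +36 (124145530), UC 1 and UC 2 were again highest, at 35% and 38.8%, and UC 3, UC 4 and UC 5 had 10%, 6.78% and 8.70%. Upstream, beyond the region, UC 3 was the highest UC at 8.84%, and UC 1 and UC 2 were the lowest at 3.64% and 1.93%.

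Further downstream of the Adra1d start, 3 more CpGs were higher in each UC than in any control with means over 10 points apart. At 124145052, 519 bp from the region, the controls had 0 to 11.1% and the UCs 22.2% to 76.9%, with UC 4 highest, on as few as 9 reads. At 124145016 the controls had 0 to 7.41% and the UCs 12.5% to 54.8%, with UC 5 highest, on as few as 8 reads. At 124144894, with at least 25 reads, the controls had 0% and the UCs 4.17% to 21.9%. The UC with the highest level thus differed from CpG to CpG within 1 kb of the Adra1d region.

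**Figure D2:**
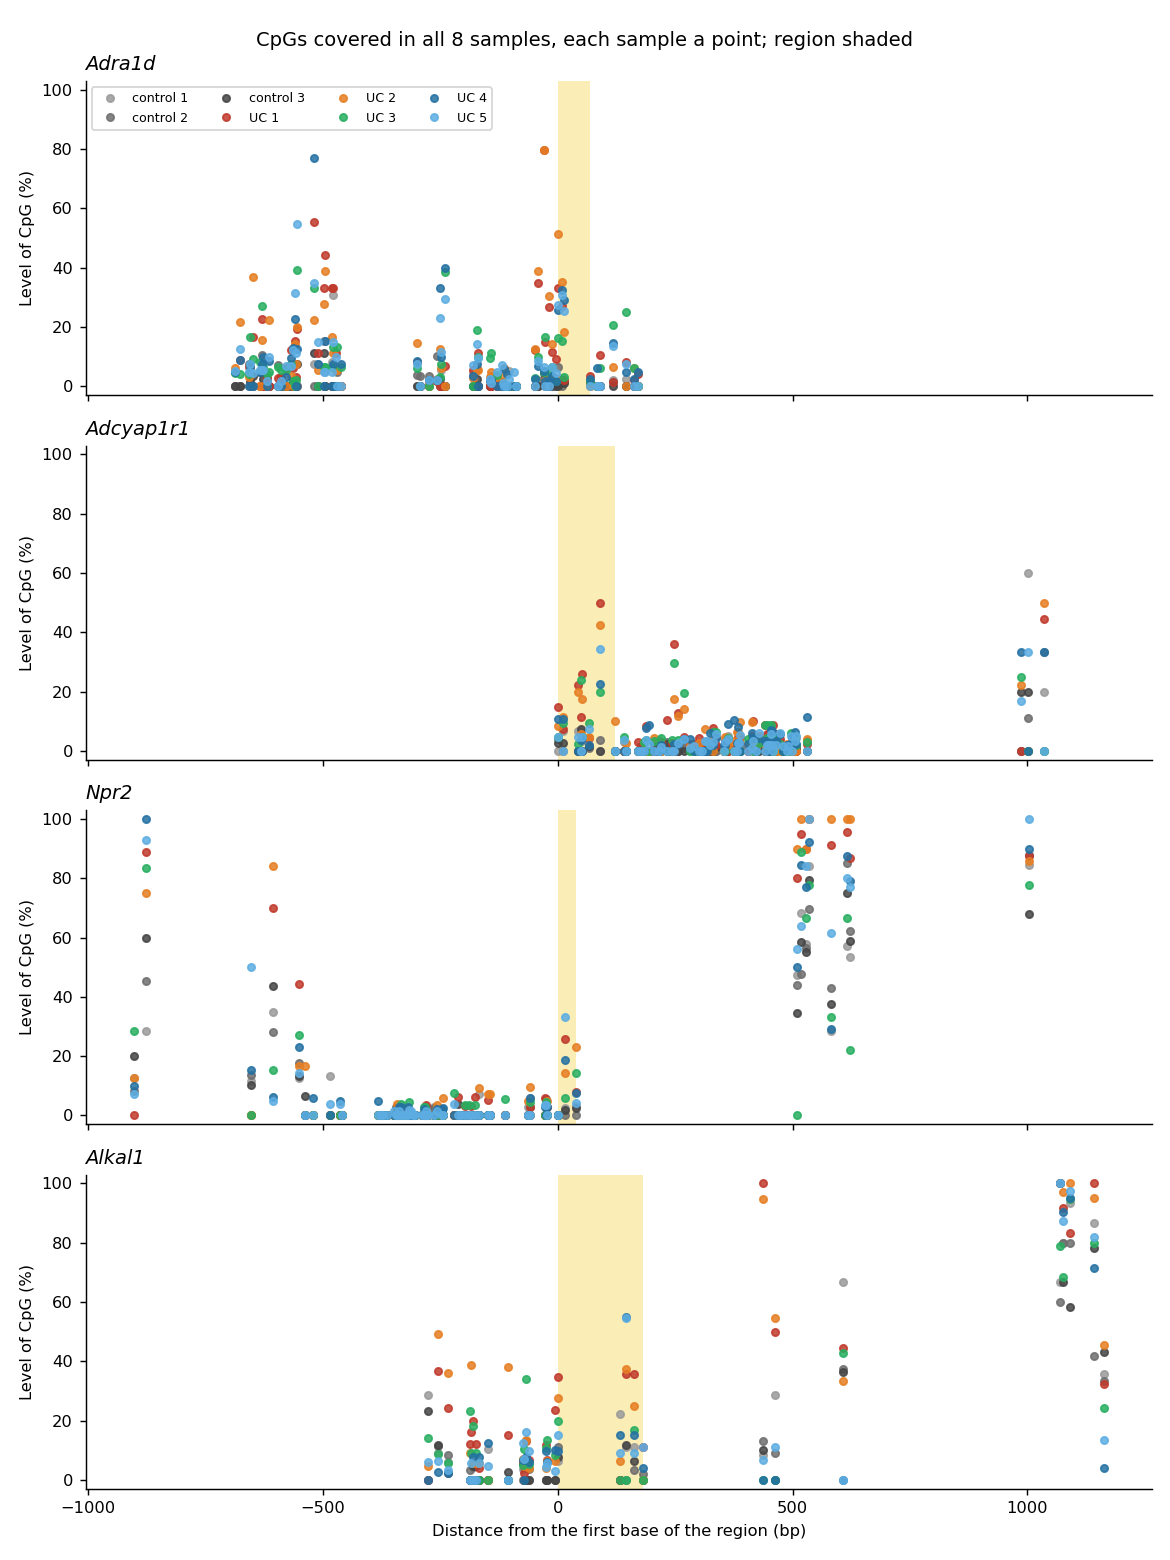
Methylation level (percent) of each CpG with reads in all 8 samples, against distance in bp from the first base of the region along rn6, for the 4 windows. Each point is 1 sample and the region is shaded. Adcyap1r1 and Npr2 show long stretches near 0 in all samples on one side of the region, and single CpGs stand out in UC 1 and UC 2 near Adra1d, Npr2 and Alkal1.

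The Adcyap1r1 region (chr4:85662585-85662707, 7 CpGs) had 3.05%, 1.81% and 1.99% in controls 1 to 3 and 19.2%, 14.9%, 10.1%, 6.79% and 9.5% in UC 1 to UC 5, on 200 to 387 calls. UC 1 was the highest and UC 4 the lowest, and the Wilson interval of UC 4, 4.16% to 10.9%, overlapped that of control 1, 1.56% to 5.91%. The means were 2.28% ± 0.67 (n = 3) and 12.1% ± 4.93 (n = 5), a difference of 9.81 points. This was the smallest of the 4, and only 2 of the 202 covered regions of the list had a smaller one. The cutoff of the list, a difference of more than 10%, sets the low end of this ranking. UC 3 was not the lowest UC here, in contrast to the other 3 regions.

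Of the 7 CpGs of the Adcyap1r1 region, 1 had a far larger difference than the others. At base -217 from the start (85662675) the controls had 0%, 3.77% and 0% and the UCs 50%, 42.5%, 20%, 22.6% and 34.3%, a difference of 32.6 points on 25 to 53 reads. The 0 calls in controls 1 and 3 allow a level of up to 6.82% and 8.33%. At the other 6 CpGs the differences were 4.19 to 8.10 points. The next CpG downstream, 33 bp away (85662708, base -184), had the same number of reads in every sample and a level of 0% in 7 samples and 10% in UC 2. This neighbour lay in a CCGG site just past the region, and any effect of the MspI cut on its level was not tested. The step of 30.6 points between the pair was matched or exceeded by 1.24% of all neighbouring pairs. It was the largest of the 56 such steps in the window, so this share for single pairs does not show how rare it is.

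The flanks of Adcyap1r1 held 58 CpGs with reads, all downstream of the region, on the side of the gene. They remained nearly free of methylation, at 0.84% ± 0.17 in controls and 3.01% ± 0.49 in UCs, although the groups did not overlap (3.48%, 3.10%, 3.11%, 3.19% and 2.17%). Levels were under 10% in every sample at 48 of the 65 CpGs of the window. No flank CpG (0 of 58) separated the groups with means over 10 points apart. At base -60 (85662832) the UCs fell apart, with 35.9%, 17.6% and 29.6% in UC 1, UC 2 and UC 3 but 2.44% and 0% in UC 4 and UC 5, where the controls had 0%.

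The Npr2 region (chr5:59128523-59128560) held 2 CpGs. Its levels were 2.17%, 0% and 1.30% in controls 1 to 3, and 19.6%, 10.3%, 3.70%, 11.8% and 23.3% in UC 1 to UC 5. With 29 to 77 calls per sample these were the least precise of the 4 regions, and the 0 of 29 calls in control 2 allow a level of up to 10.3%. UC 3 was the lowest UC, with a Wilson interval of 1.02% to 12.5% that contained the levels of 2 controls. The means were 1.16% ± 1.09 (n = 3) and 13.7% ± 7.78 (n = 5), a difference of 12.6 points. The second CpG (59128539) alone carried the increase, with 2.63%, 0% and 1.72% in the controls and 25.7%, 14.3%, 5.88%, 18.8% and 33.3% in the UCs. The first (59128523) had 0 C calls in all 8 samples, on 6 to 20 reads, which allow levels of up to 15% to 50%.

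That first CpG of the Npr2 region ended a run of 46 consecutive CpGs, over 464 bp from 59128060, at which every sample was under 10%. On the other side of the region levels were high in the normal bladders as well, at 53.0% ± 4.08 against 68.7% ± 13.6 in UCs, with UC 3, at 47.7%, below the lowest control at 49.1%. The flanks as a whole were at 7.10% ± 1.91 in controls and 8.20% ± 2.17 in UCs, and the groups overlapped. Within 100 bp of the Npr2 region the 6 CpGs averaged 1.25% in controls, so the partly methylated CpGs of normal bladder lay farther out. They were found on the side of the run as well, with a control mean of 35.5% at 59127917.

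Single CpGs in the flanks of Npr2 again set the UCs apart from each other. At 59127917, 606 bp before the region, the controls were partly methylated at 34.9%, 28% and 43.6%. UC 1 and UC 2 were above them, at 70% and 84.2%, and UC 3, UC 4 and UC 5 were below them, at 15.4%, 6.06% and 5.0%. The group means of 35.5% and 36.1% hid this divergence. At 59129104, 581 bp after the first base of the region, UC 1 had 91.3% and UC 2 100% (4 reads), against 28.6% to 61.5% in the other 6 samples. The groups did not overlap at 59129051, where the controls had 55.2% to 57.9% and the UCs 66.7% to 90%, nor at 59127647, with 28.6% to 60% and 75% to 100% on as few as 6 reads.

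The region of the ligand gene Alkal1 (chr5:12925651-12925831) held 11 CpGs, of which 4 had reads in all 8 samples. Its levels were 8.62%, 1.86% and 4.76% in controls 1 to 3, and 28.4%, 24.7%, 8.47%, 17.9% and 12.9% in UC 1 to UC 5, on 58 to 161 calls. UC 3 lay within the range of the controls. The means were 5.08% ± 3.39 (n = 3) and 18.4% ± 8.18 (n = 5), a difference of 13.4 points. The samples were not measured on the same CpGs: UC 1 and UC 2 had reads on 4 of them and the others on 9 to 11, and the 7 CpGs that UC 1 and UC 2 lacked had 0 C calls wherever else they were read, on 3 to 8 reads each. On the 4 shared CpGs the controls had 11.6%, 2.86% and 6.35% and the UCs 28.4%, 24.7%, 13.2%, 22% and 19.7%, so that there the groups did not overlap and differed by 14.6 points on average.

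The 4 shared CpGs of Alkal1 differed among themselves. At 12925796 UC 4 and UC 5 were highest, at 55% and 54.5%, UC 1 and UC 2 had 35.7% and 37.5%, and UC 3 had 0 of 6 reads, against 0 to 11.8% in the controls. At the first CpG, 12925651, UC 1 and UC 2 were highest, at 34.6% and 27.6%, and UC 4 had 9.68%, between the controls at 6.25% and 11.1%. At 12925814 the UCs had 9.09% to 35.7% against 3.45% to 11.1%. At 12925783 the groups overlapped, with a difference of -1.34 points. Reads at these CpGs were as few as 6.

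The flanks of Alkal1 were at 12.8% ± 4.01 in controls and 22.1% ± 7.39 in UCs, with UC 4 at 14.6% below control 1 at 17.3%. On the side after the region the controls were already at 40.5% ± 15.5 and the UCs at 57.9% ± 10.4, and the groups overlapped. On the side before the region all UCs exceeded the controls, at 4.85% ± 1.18 against 11.1% ± 4.98 (14.2%, 17.8%, 10.8%, 6.02% and 6.67% in UC 1 to UC 5). UC 4 was there only just above control 2 at 5.78%, and their Wilson intervals overlapped. At 12925584 on this side UC 3 was the highest UC with 34%, the others had 7.84% to 16.2%, and the controls 0 to 5.13%. At 12925646, 5 bp before the region, the controls had 0% and the UCs 2.86% to 23.7%, with UC 1 highest. At 12926089, 438 bp after the first base of the region, UC 1 had 100% (11 of 11 reads) and UC 2 94.7%, UC 3 and UC 4 had 0%, UC 5 had 6.67%, and the controls had 8.33% to 13%.

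The 4 CpGs described at Adra1d (124145541), Npr2 (59127917 and 59129104) and Alkal1 (12926089) were the CpGs of the windows at which UC 1 and UC 2 were both over 25 points above each of the other 6 samples. Of all CpGs of the series, 0.985% did so. The same pattern for UC 4 and UC 5 was found at 0 of the 224 CpGs of the windows, and at 0.618% of all CpGs. None of the 4 CpGs lay inside a region of the list.

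**Figure D3:**
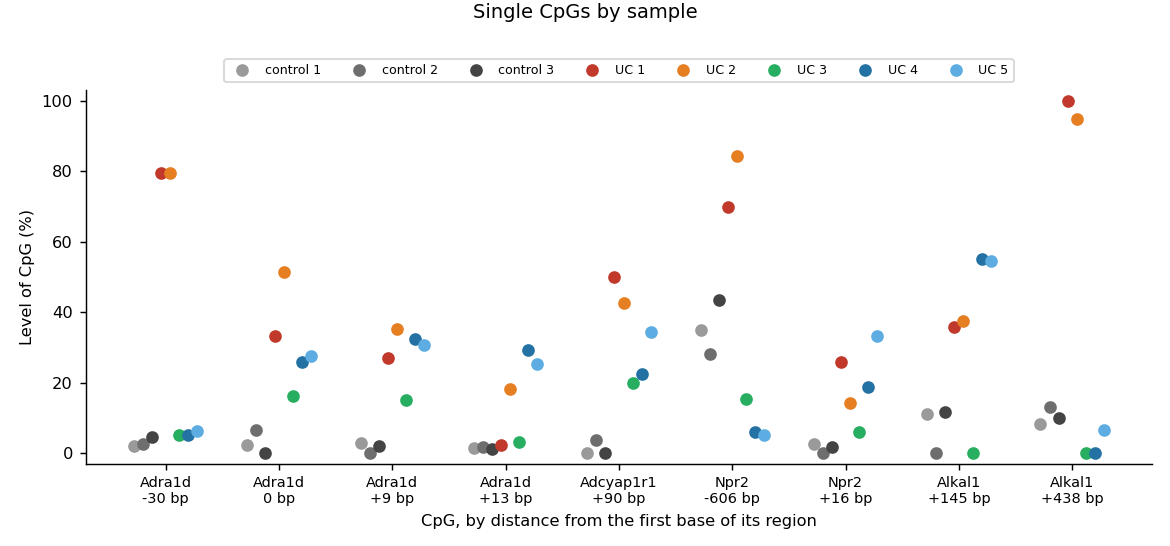
Methylation level (percent) of 9 CpGs in each sample, labelled by gene and by distance in bp from the first base of the region. Points are samples, without error bars. UC 1 and UC 2 stand alone at Adra1d -30 bp, Npr2 -606 bp and Alkal1 +438 bp, whereas all 5 UCs are above the controls at Adcyap1r1 +90 bp and Npr2 +16 bp.

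Read coverage was not used to choose the regions and was tested. It was taken as the reads of the CpGs within 1 kb of a region, relative to those of all autosomes, on a log2 scale with the mean of the controls at 0. Around Adcyap1r1 all 5 UCs, at -0.26 to -0.50, were below all controls, at -0.18 to 0.10. The difference was -0.36 (0.780-fold), with p = 0.0179 in an exact two-sided permutation test, the smallest that 3 against 5 samples can give, and 0.0714 after Benjamini-Hochberg adjustment over the 4 windows. The differences were 0.14 for Adra1d (exact p = 0.411), -0.45 for Npr2 (exact p = 0.143) and 0.18 for Alkal1 (exact p = 0.0893), with adjusted values of 0.411, 0.190 and 0.179. None of the 4 passed 0.05 after adjustment, which 1 window alone could not do in this design, as 0.0714 was the smallest value open to it. The test took the 5 UCs as separate samples. By methylation, however, UC 1 and UC 2, and UC 4 and UC 5, were as alike as pairs of controls. Coverage was not tested with these pairs averaged, which would leave fewer samples and raise the smallest possible p.

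Around Npr2 coverage differed among the UCs. Within 1 kb UC 2 was at -1.03, UC 1 at -0.53 and UC 3 at -0.52, whereas UC 4 and UC 5 were at -0.04 and -0.10, within the controls at -0.19 to 0.26. Over 500 kb on either side UC 1 was at -0.74, UC 2 at -0.89 and UC 3 at -0.37, against -0.06 and -0.05 in UC 4 and UC 5 and -0.05 to 0.05 in the controls (group difference -0.42, exact p = 0.125, adjusted 0.25). UC 1 and UC 2, the lowest in coverage, were also the samples with the highest levels at 59127917 and 59129104. UC 3, close to UC 1 in coverage within 1 kb, had 15.4% and 33.3% at these CpGs. The part of coverage in these levels was not tested. Alkal1, on the same chromosome, had 0.06 over 500 kb (exact p = 0.518).

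**Figure D4:**
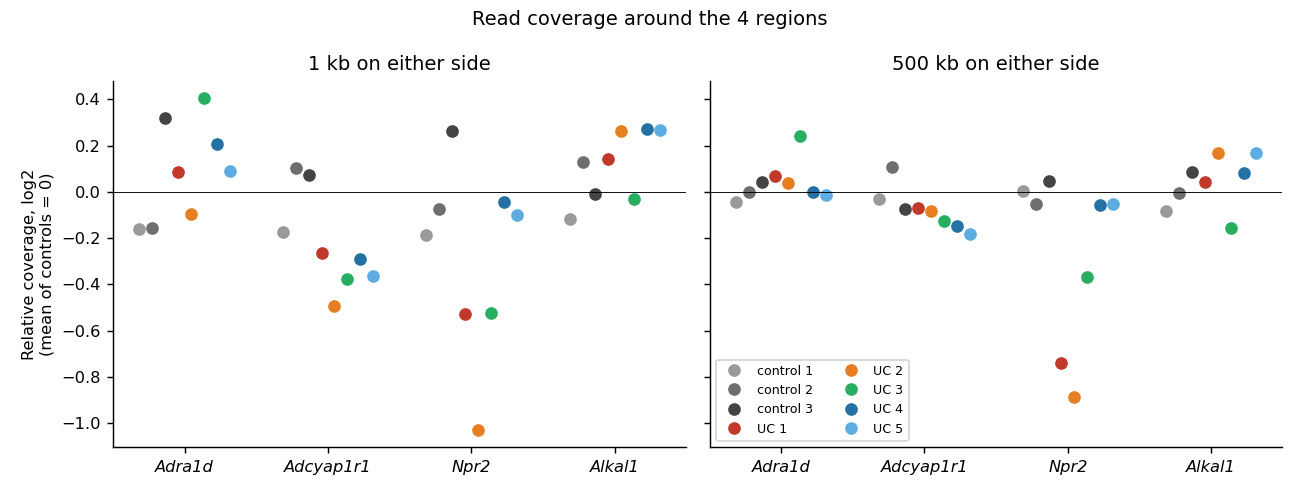
Relative read coverage (log2, mean of the controls at 0) of the CpGs around the 4 regions in each sample, within 1 kb (left) and within 500 kb (right). Points are samples and the line marks 0. UC 1, UC 2 and UC 3 lie below the other samples around Npr2 in both panels, and all 5 UCs lie below the controls around Adcyap1r1 within 1 kb.

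The 4 genes were set beside a selection, made by hand from the list, of 36 genes of receptors, ligands and intracellular signalling. It does not hold all such genes of the list: Nradd, Ptprm and Sema5a, named after their values were seen, were not part of it. Of the 36, 30 were covered by at least 3 CpGs in every sample. Npr2, with 2 CpGs, was not. The groups were separated, with all UCs higher, in 29 of the 30, as the list was chosen for such separation. The exception was Alkal1, whose groups were separated on the 4 CpGs with reads in every sample. The median difference was 18.5 points, where that of all 202 covered regions was 17.6. G protein-coupled receptors had a median of 17.8 points (11 covered of 12), ligand-gated channels 16.6 (4 of 6), single-pass receptors 19.6 (2 of 4), secreted ligands and binding proteins 25.1 (7 of 7) and intracellular signalling proteins 20.7 (6 of 7). Adra1d, with more difference than 133 of the 202 regions, was in the upper part of the list. Adcyap1r1, Npr2 and Alkal1 had more than 2, 40 and 52 and were in the lower part.

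The largest differences among the 30 covered genes of this selection were those of Mdk, which encodes the heparin-binding growth factor midkine, Npb, which encodes the ligand neuropeptide B, and Prkcb, which encodes protein kinase C beta. Mdk went from a mean of 20.6% in controls to 78.4% in UCs, Npb from 9.28% to 56.9%, and Prkcb from 1.60% to 37.7%. The smallest were those of Adcyap1r1, of Ntf3, which encodes neurotrophin 3 (1.05% and 11.4%), and of Stc2, which encodes stanniocalcin 2 (2.20% and 12.9%). The mean of UC 1 and UC 2 was above that of UC 4 and UC 5 in 19 of the 30 selected regions and in 129 of all 202. By group these were 7 of the 7 secreted ligands and binding proteins, Alkal1 included, and 9 of the 11 G protein-coupled receptors. They were 0 of the 4 ligand-gated channels, 1 of the 2 single-pass receptors and 2 of the 6 intracellular signalling proteins. Adra1d was 1 of the 2 G protein-coupled receptor regions in the other direction, with 25.7% and 28.6%.

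**Figure D5:**
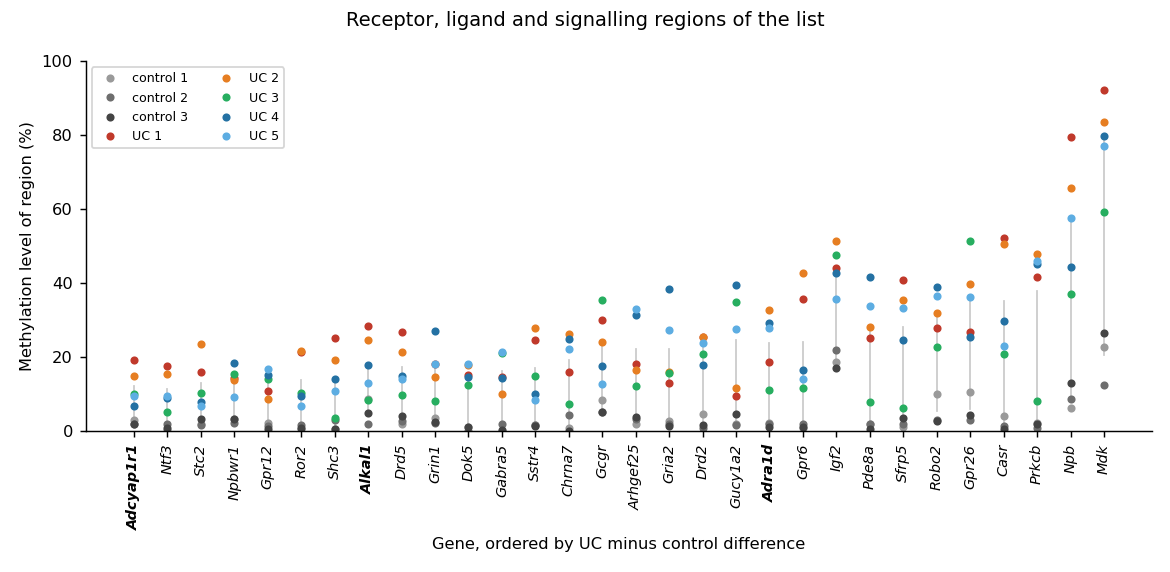
Methylation level (percent) of the 30 covered regions of the selected receptor, ligand and signalling genes in each sample, ordered by the difference of the UC and control means. Points are samples, vertical lines join the 2 group means, and bold names are the genes described here. Adcyap1r1 has the smallest difference, 9.81 points, and Mdk the largest, 57.8 points.

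The place of UC 3 between controls and UCs differed by gene. Its rise above the control mean, as a share of the mean rise of the other 4 UCs, was 36.5% for Adra1d, 75.4% for Adcyap1r1, 16.9% for Npr2 and 21.4% for Alkal1, where the median over the 202 covered regions was 48.5%. The Npr2 share rested on 2 CpGs. In the Alkal1 region UC 1 and UC 2 were measured on fewer CpGs than the other samples. On its 4 shared CpGs the control mean was 6.94%, UC 3 had 13.2% and the other UCs averaged 23.7%. The regions of the list whose levels over the 8 samples were closest to those of each gene, by root mean square difference, are as follows. Adra1d was closest to Tcerg1l (3.13 points) and Galnt17 (3.67), Adcyap1r1 to Ntf3 (2.21) and Lhx5 (2.43), Npr2 to Ephx4 (3.08) and Vgll2 (3.76), and Alkal1 to the dopamine receptor gene Drd5 (2.93) and Sp9 (3.36). The median distance to all covered regions was 10.2, 10.3, 9.46 and 8.90 points in the same order.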

How the data were processed

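Per the methods, the authors used RRBSMAP with rn6, discarded reads that aligned more than once and PCR duplicates marked by a random barcode; the submitters' processing notes also name HOMER. For each CpG with at least 3 reads, the deposited files hold counts of C calls and of C and T calls, which were used here. The authors also deposited an effective count, an expected count corrected for base variants, used as an alternative, and a ratio as a fraction from 0 to 1, which was not used. Region levels were summed C calls over summed calls, for CpGs from the first to the last base of a region. Intervals are 95% Wilson intervals; these and the limits set by 0 calls (3 counts) cover counting error only, and CpGs on one read are not independent. Only coverage was tested, by exact permutation over 56 divisions of the 8 samples. The labels do not state that samples are separate animals, so p-values measure the spread between these samples. Counting was checked on simulated calls of independent samples, with a larger difference than in the 4 regions and more reads than the median CpG. The permutation test was checked on simulated random values. The members and lists were chosen with earlier results of these data known. Named were the 4 genes, the 2 closest regions to each, and the 3 largest and 3 smallest differences of a hand-picked selection of signalling genes; CpGs named were chosen after their values were seen. Relatives of the 4 genes outside the list were not analysed here, since no rn6 annotation was used. Python 3.11.15, numpy 2.4.6, pandas 2.3.3, scipy 1.17.1 and matplotlib 3.10.9 were used.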

Additional observations from a re-analysis of the deposited data

Results flagged for a closer look

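Of 44 measures in the 5 UCs, 1 had a UC far from the others, where chance gives about 2.2. In the flanks of Adcyap1r1, UC 5 had a level of 2.17%, whereas the remaining 4 UCs had 3.10% to 3.48%. The gap to the nearest was 0.715 of the range of the 5 UCs, just over the Dixon critical value of 0.71.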

How the results depend on the processing

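Of the alternatives other than leaving out samples, 49 kept their result, 2 moved it and 1 reversed it. The difference of the Npr2 flanks went from 1.1 points to -0.422 with at least 10 reads per CpG; the sign rests on thinly covered CpGs. The share of CpGs with every UC above every control went from 6.25% to 13.4% without a minimum difference, where all CpGs give 8.05%, and to 3.57% over 20 points, where all CpGs give 4.75%, as the looser and stricter criteria imply. Including the CpG just past the end of each region, an alternative chosen after seeing the data, gave 16.6 points for Adra1d and 8.79, 11.4 and 11.7 for Adcyap1r1, Npr2 and Alkal1. For Adra1d and Adcyap1r1 that CpG lay in a CCGG site. All 96 values with 1 sample left out kept their direction. The levels had no test, and a single coverage window could not have passed 0.05 with fewer samples, so this shows nothing about its call. The values ranged from 20 to 25.3 points for the Adra1d region, 8.04 to 11.1 for Adcyap1r1, 10.2 to 15.1 for Npr2 and 10.9 to 15.9 for Alkal1, and in the flanks from 5.90 to 6.91, 2.06 to 2.38, 0.23 to 2.13 and 6.15 to 11.5. In coverage they ranged from 0.06 to 0.30, -0.45 to -0.31, -0.55 to -0.30 and 0.12 to 0.25. Same-numbered controls and UCs did not deviate together (correlations 0.0139, -0.00315 and 0.0406). This cannot decide whether the numbers pair the samples, as the differences among the UCs were larger than those among the controls. With a replicate block the coverage differences were 0.13, -0.38, -0.69 and 0.12, and the exact test of 3 pairs cannot go below 0.25.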
